A study of Mus musculus with 6 samples.

Results

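Rab GTPases are the small switch proteins that give each membrane compartment of a cell its traffic, and 59 of the 18193 genes with a probe set of their own were Rab genes. They were taken by name: a probe set with a single gene symbol made of Rab, a number and at most 1 letter from a to d. Where a gene had several, its brightest one over the 6 arrays was used. The arrays held total RNA from the hippocampus of mice aged 2 to 3 months. The design describes 3 pairs, each a deficient animal and a littermate control. The 3 control animals had 1 floxed and 1 null allele of the IκBα gene (IκBαfl/-). The 3 deficient animals had the same alleles plus Nestin-Cre (IκBαfl/-;Nestin-Cre), so all 6 animals carried a null allele. IκBα holds NF-κB transcription factors in the cytoplasm. The Nestin promoter drives Cre in neural precursors, so neurons, astrocytes and oligodendrocytes descend from cells that had the recombinase, while microglia and blood vessels keep the floxed allele. In a whole hippocampus, fewer cells of a type and less RNA per cell cannot be told apart.

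A Rab protein bound to GTP sits on a membrane and recruits motors, tethers and fusion factors, and after hydrolysis to GDP it is drawn back into the cytosol. Exchange factors switch it on, GTPase-activating proteins switch it off, and GDP dissociation inhibitors carry it between membranes. In hippocampal neurons Rab3 proteins ride on synaptic vesicles, Rab5, Rab4 and Rab11 proteins move receptors through endosomes of dendrites, and Rab7 leads cargo to the lysosome.

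Values are RMA log2 values, relative levels on which a difference of 1 is a doubling. They are given for arrays 1, 2 and 3 of a group in that order, and a difference is deficient minus control. The targeted gene Nfkbia was at 10.39, 10.35 and 10.31 in controls and at 9.06, 9.13 and 8.66 in deficient animals, with no overlap. The difference was -1.40 ± 0.12 (SE), with an adjusted p of 0.057 (limma). Array medians lay between 6.08 and 6.13. The 12 marker genes of hippocampal pyramidal and granule neurons had group means above those medians, the lowest being Prox1 at 6.81 in controls and 6.75 in deficient animals. Deficient array 2 stood apart in RNA quality. Control probe sets at the 3′ end exceeded those at the 5′ end of actin and Gapdh by a mean of 2.02 there and by 0.56 to 0.73 on the 5 other arrays. Of the 12 markers of hippocampal pyramidal and granule neurons, 10 were lower in deficient animals, with a median difference of -0.07. Their mean was 9.71, 9.88 and 9.84 in controls and 9.68, 9.70 and 9.76 in deficient animals. Of 11 general neuron markers, 5 were higher and 6 lower, with a median difference of -0.008. Genes of tissue next to the hippocampus varied between arrays, with list means that overlapped between the groups. The mean of 11 choroid plexus genes was 7.80, 5.76 and 5.71 in controls and 8.57, 7.997 and 7.67 in deficient animals. The mean of 10 meninges genes was 8.36, 8.54 and 7.88 against 8.45, 9.38 and 8.45. No gene of these lists passed after adjustment (limma). At an unadjusted p under 0.05, 10 of 11 choroid plexus and 3 of 10 meninges genes were higher, beside 3.33% of all genes. Of the 12 hippocampal neuron markers, 3 were lower at that p, beside 1.39% of all genes, and 1 was higher. None of the 11 general neuron markers had such a p.

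The Rab genes were nearly level between the genotypes. Of the 59, 36 (61%) were higher and 23 lower in deficient animals, beside 52.6% of all genes higher. The median difference was 0.02, beside 0.006 over all genes. The balance turned with the choice of probe set: 26 were higher when a gene's probe sets were averaged, and 25 with its most variable one, beside 48.5% and 46.8% of all genes. The differences ran from -0.21 for Rab24 to 0.20 for Rab39, that is from 1.16-fold lower to 1.15-fold higher. After Benjamini-Hochberg adjustment over all genes (limma, threshold 0.05), 0 Rab genes passed, as did 0% of all genes. The adjusted p of the Rab genes lay between 0.963 and 1. At an unadjusted p under 0.05 there was 1 higher Rab gene, Rab39, beside 3.33% of all genes in that direction, and there were 0 lower ones, beside 1.39%. A test without moderation of the variance gave 0 in either direction.

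Separation between the groups was rare as well. For 2 Rab genes, Rab39 and Rab25, each of the 3 deficient arrays was above each control, beside 5.94% of all genes, and for 0 each was below, beside 3.82%. The data limit how far the brightest probe sets of the Rab genes could have differed. The 95% interval of the difference lay within 0.25 of 0 on the log2 scale, 1.19-fold, for 34 of the 59. It lay within 0.50, 1.41-fold, for 56, and within 1 for all 59. Over all genes, 94.2% had an interval within 0.50. The 3 Rab genes whose intervals reached past 0.50 were Rab24 (-0.62 to 0.20), Rab3b (-0.60 to 0.28) and Rab8a (-0.53 to 0.16), each with a low value on deficient array 2. These limits do not cover dimmer probe sets, some of which were less precise. Those of Rab28 and Rab18 differed by -0.68 ± 0.57 and -0.54 ± 0.46.

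**Figure D1:**
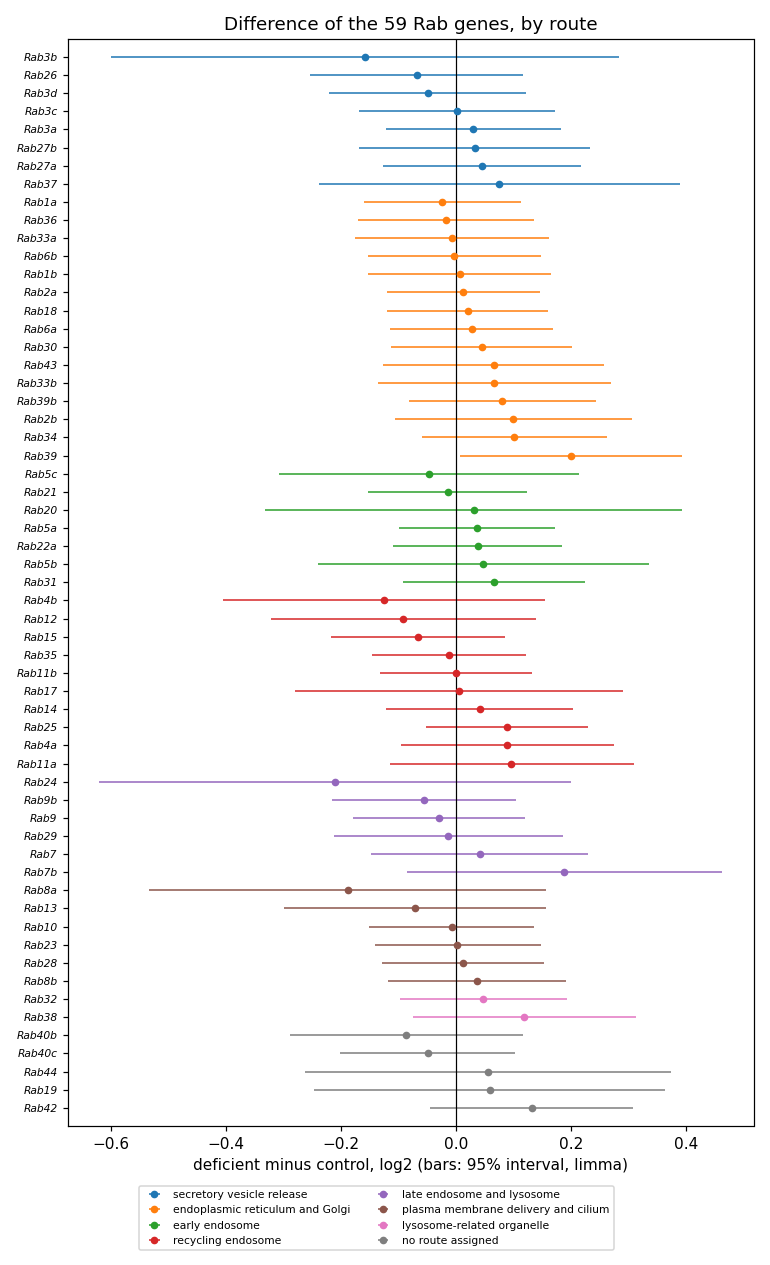
Difference between deficient and control means of the 59 Rab genes on the log2 scale (horizontal axis), with 95% intervals from limma, 3 arrays per group. Genes are ordered by route and difference. All intervals but that of Rab39 cross 0, and those of Rab24, Rab3b and Rab8a reach below -0.50.

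Because IκBα restrains NF-κB, the start regions of the Rab genes were searched for the κB consensus on both strands. RefSeq windows (GRCm38.p6) of 300 bases, from 250 before to 50 after the start, were at hand for 48 of the 59 genes. A match was found in 2 of them, or 4.17%, beside 5.14% of 27025 genes with such windows. The 2 Rab genes are shown with Nfkbia, itself a known NF-κB target, 5′ to 3′ on the minus strand and with the match in capitals.
Nfkbia, chr12:55492648-55492706: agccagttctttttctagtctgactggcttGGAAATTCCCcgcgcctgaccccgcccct
Rab15, chr12:76818440-76818500: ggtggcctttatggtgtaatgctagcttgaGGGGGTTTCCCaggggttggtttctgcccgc
Rab28, chr5:41708180-41708219: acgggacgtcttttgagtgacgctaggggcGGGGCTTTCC

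The Rab15 window held 2 overlapping matches and was 1 of 4 windows of that gene. The Rab28 match ended at the annotated start. Rab15, of receptor recycling and neuronal differentiation, was at 11.54, 11.56 and 11.52 in controls and 11.43, 11.56 and 11.42 in deficient animals. Deficient array 2, at 11.561, lay just above the highest control, at 11.556, and the 2 other deficient arrays lay below all controls. The difference was -0.07 ± 0.07, or -0.11 without deficient array 2. The brightest Rab28 probe set was at 11.39, 11.36 and 11.43 against 11.45, 11.41 and 11.36, with full overlap and a difference of 0.01 ± 0.06. A match describes the letters of a window only.

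The Rab proteins of regulated secretion comprised 8 genes, of which 5 were higher and 3 lower, with a median difference of 0.02. The route mean was 9.31, 9.30 and 9.30 in controls and 9.30, 9.22 and 9.36 in deficient animals. Rab3a, the main Rab of synaptic vesicles, was at 13.04, 13.15 and 13.04 in controls and 13.05, 13.17 and 13.10 in deficient animals, so the groups overlapped. Its difference was 0.03 ± 0.07 (SE), with a 95% interval of -0.12 to 0.18. That probe set is of a type that can take up related transcripts (its name ends in _x_at), and the other Rab3a probe set differed by -0.28 ± 0.19, or by -0.04 without deficient array 2. Rab3c, a close relative on the same vesicles, was at 12.67, 12.68 and 12.68 against 12.64, 12.58 and 12.81. The interval of its difference ran from -0.17 to 0.17. Rab3b stood at 9.77, 9.60 and 9.53 in controls and at 9.63, 8.99 and 9.80 in deficient animals. Deficient array 2 was the low one, and the difference of -0.16 ± 0.19 turned to 0.08 without it. Rab3d, the fourth member of the subfamily, differed by -0.05 ± 0.07.

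Rab26, which links synaptic vesicles to autophagy, was at 9.33, 9.35 and 9.37 in controls and 9.23, 9.18 and 9.44 in deficient animals. Deficient arrays 1 and 2 lay below every control and array 3 above, for a difference of -0.07 ± 0.08, or -0.02 without array 2. Rab27a and Rab27b, which tether secretory granules and exosome-forming endosomes, differed by 0.05 ± 0.07 and 0.03 ± 0.09. Rab37, also of secretory granules, was dim at 5.30 in controls, below the array medians, and differed by 0.08 ± 0.14.

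In the endoplasmic reticulum and Golgi route, 11 of 15 genes were higher and 4 lower, with a median difference of 0.03. Route means were 10.08, 10.10 and 10.11 in controls and 10.14, 10.17 and 10.12 in deficient animals. The 3 deficient means were above all controls, with deficient array 3 at 10.122 next to control array 3 at 10.108. These means include Rab39, which had the largest difference of the route, and they were not computed without it. Rab39, a Rab of the Golgi and of phagosome and autophagosome maturation, was at 5.07, 5.08 and 5.31 in controls and 5.32, 5.31 and 5.43 in deficient animals. Control array 3 reached almost to the lowest deficient array, at 5.306 against 5.311. The difference of 0.20 ± 0.08 had an unadjusted p of 0.0436 and an adjusted p of 0.963 (limma, Benjamini-Hochberg), and over 17 alternatives it ran from 0.16 to 0.32, the last with a choroid plexus covariate. The unadjusted p was 0.0087 without control array 3 and 0.0524 to 0.144 without any other single array. The gene is dim and has 1 probe set.

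Its X-linked paralog Rab39b, mutated in inherited intellectual disability, was at 10.10, 10.18 and 10.18 against 10.27, 10.30 and 10.13, with deficient array 3 inside the control range. Rab34, a Rab of the Golgi and of cilium formation, was at 8.30, 8.36 and 8.48 against 8.52, 8.48 and 8.44, a difference of 0.10 ± 0.07. Several members of bulk secretory traffic were flatter, but not Rab2b. Rab1a and Rab1b, which act between the endoplasmic reticulum and the Golgi, differed by -0.02 ± 0.06 and 0.006 ± 0.07. Rab2a, of the same step, differed by 0.01 ± 0.06, and Rab6a and Rab6b, of traffic within the Golgi, by 0.03 ± 0.06 and -0.004 ± 0.07. Another Rab2a probe set, at a control mean of 12.65, differed by 0.11 ± 0.07, and its groups did not overlap. Rab2b, the paralog of Rab2a, differed by 0.10 ± 0.09, or by 0.02 without deficient array 2. Apart from Rab39 and Rab34, the 13 genes of this route had differences between -0.02 and 0.10.

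The early endosome route held 7 genes, 5 higher and 2 lower, with a median difference of 0.04. Rab5a, which drives fusion of endocytic vesicles with early endosomes, was at 11.975, 11.98 and 12.004 in controls and at 12.05, 12.05 and 11.975 in deficient animals. Deficient array 3 fell among the controls, and the difference was 0.04 ± 0.06. Rab5b differed by 0.05 ± 0.12 and Rab5c by -0.05 ± 0.11, the latter with deficient array 2 at 10.30 and the 5 other arrays at 10.56 to 10.73. Without that array they differed by 0.17 and 0.09. Rab31, which sorts cargo between the Golgi and endosomes, was at 10.58, 10.43 and 10.60 against 10.60, 10.58 and 10.62. Here control array 2 was the low one, and the difference was 0.07 ± 0.07. Rab20, Rab21 and Rab22a differed by 0.03, -0.02 and 0.04.

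Among the 10 genes of the recycling endosome, 5 were higher and 5 lower, with a median difference of 0.002. Rab25, an epithelial relative of Rab11a, was at 6.36, 6.35 and 6.29 in controls and 6.47, 6.38 and 6.41 in deficient animals. The groups did not overlap, but the gap between them was small and the difference of 0.09 ± 0.06 had a p of 0.188 before and 0.963 after adjustment (limma). With the choroid plexus mean as a covariate the difference of Rab25 was 0.05 ± 0.10. Rab4a, of rapid recycling from early endosomes, was at 10.27, 10.21 and 10.19 against 10.22, 10.47 and 10.25, with deficient array 2 on top. Its difference was 0.09 ± 0.08, 0.01 without that array, and -0.07 with probe sets that can take up other transcripts left out. The probe set used in that last case was low on deficient array 2, at 8.46, and differed by 0.05 without it. Rab4b was also low on deficient array 2, at 9.59 beside 9.95 to 10.08 on the 5 others, and its difference turned from -0.13 to 0.02 without it. Rab11a, which returns receptors to the dendritic surface, differed by 0.10 ± 0.09, with its highest value, 11.13, again on deficient array 2, and by 0.009 without it. Rab11b differed by -0.001 ± 0.06, with a 95% interval of -0.13 to 0.13. The remaining members, Rab12, Rab14, Rab15, Rab17 and Rab35, differed by -0.09 to 0.04.

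The late endosome and lysosome route had 2 of 6 genes higher and 4 lower, with a median difference of -0.02. Rab24, an atypical Rab tied to autophagy, was at 10.04, 9.94 and 10.07 in controls and at 10.02, 9.34 and 10.06 in deficient animals. Deficient array 2 alone was low, and the difference of -0.21 ± 0.18 turned to 0.02 without it. Rab7b, of traffic from late endosomes to the Golgi, was at 6.62, 6.51 and 6.14 against 6.60, 6.63 and 6.62, so that control array 3 stood low and the deficient arrays were alike. Its difference was 0.19 ± 0.12 with all arrays. It was 0.05 without control array 3, and 0.29 without control array 1 (unadjusted p = 0.0428, limma, adjusted p = 0.999). The other Rab7b probe sets, dimmer at control means of 4.83 and 4.43, differed by 0.002 and -0.014. Rab7 itself, the main late endosomal Rab, was at 12.34, 12.33 and 12.35 against 12.30, 12.55 and 12.30. Deficient array 2 was above and the 2 others below all controls, for a difference of 0.04 ± 0.08, or -0.04 without deficient array 2. The dimmer Rab7 probe set went the other way, at 9.60, 9.56 and 9.64 against 9.67, 8.88 and 9.74. It differed by -0.17 ± 0.21, or by 0.10 without deficient array 2. Rab9, Rab9b and Rab29 differed by -0.03, -0.06 and -0.01.

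Delivery to the plasma membrane and the cilium was split, with 3 of 6 genes higher and 3 lower and a median difference of -0.003. Rab8a, which acts in exocytosis and in the primary cilium, was at 8.81, 8.72 and 8.68 against 8.81, 8.18 and 8.66. Its difference of -0.19 ± 0.15 rested on deficient array 2 and was -0.004 without it. Rab13, an epithelial junction Rab, was at 6.85, 6.85 and 6.77 against 6.96, 6.59 and 6.70, for a difference of -0.07 ± 0.10, or 0.008 without deficient array 2. Rab8b, Rab10, Rab23 and Rab28 lay between -0.008 and 0.04. The 2 genes of lysosome-related organelles were higher. Rab38, known from pigment granules, was at 7.09, 7.10 and 7.30 against 7.28, 7.19 and 7.38, and Rab32 at 6.40, 6.46 and 6.49 against 6.44, 6.503 and 6.54. The groups overlapped in both genes, with differences of 0.12 ± 0.08 and 0.05 ± 0.06. The other Rab38 probe set, nearly as bright at a control mean of 7.11, differed by 0.002 ± 0.09.

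Of 5 Rab genes with no route assigned, 3 were higher and 2 lower. Rab42 was at 5.82, 5.76 and 5.92 against 6.04, 5.86 and 6.002, where deficient array 2 lay below control array 3. The difference was 0.13 ± 0.08 with all arrays and 0.19 without that array (unadjusted p = 0.036, limma, adjusted p = 0.95). Rab40b, which works with a ubiquitin ligase, was at 10.88, 11.07 and 11.13 against 11.02, 10.82 and 10.97. Its difference was -0.09 ± 0.09, or -0.03 without deficient array 2. The dimmer Rab40b probe set differed by -0.26 ± 0.23, or by 0.02 without that array. Rab19, Rab40c and Rab44 differed by 0.06, -0.05 and 0.06. Altogether 12 of the 59 genes had means below the lowest array median. A difference in such dim genes may be understated.

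**Figure D2:**
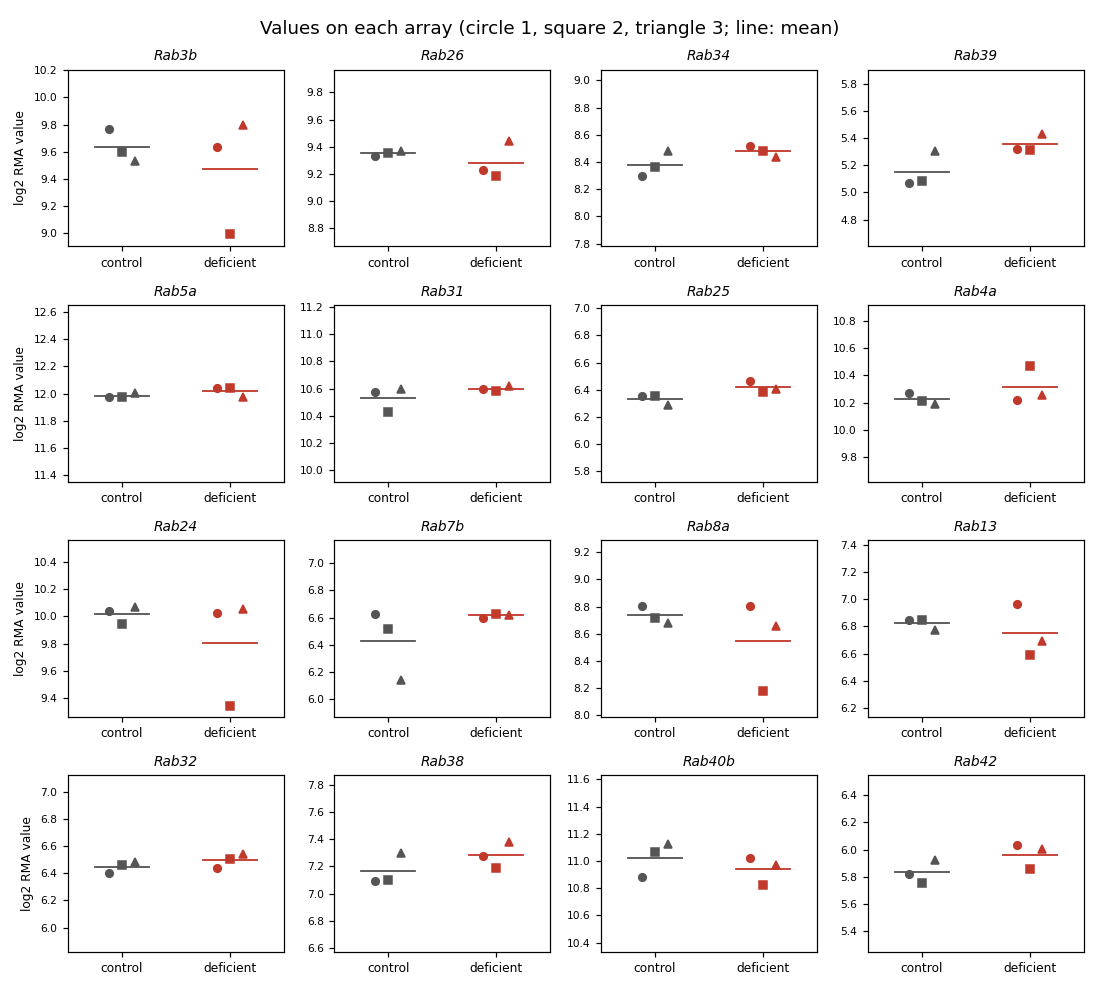
RMA log2 values (vertical axis, the same span of 1.3 in each panel) on the 3 control and 3 deficient arrays for 16 Rab genes: those with an unadjusted p under 0.05 or separated groups, and the 2 with the smallest p of each route. Points are arrays and lines are group means. The low square on the deficient side of Rab24, Rab3b and Rab8a is deficient array 2.

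The widest spread of Rab values lay on deficient array 2. It held the highest value of the 6 arrays for 20 of the 59 genes and the lowest for 17. Over all genes it held the highest for 32.4% and the lowest for 18.1%. It lay over 0.20 below the 5 other arrays in 5 Rab genes, Rab24, Rab3b, Rab8a, Rab4b and Rab5c, and over 0.20 above them in 2, Rab43 and Rab11a. That is 8.47% and 3.39% of the Rab genes, beside 5.17% and 3.81% of all genes. On the 5 other arrays together this happened for 2 Rab genes, with Rab7b low on control array 3 and Rab37 high on deficient array 1. Median SDs of the Rab genes were 0.06 in controls and 0.09 in deficient animals, beside 0.08 and 0.10 over all genes. Without deficient array 2 the median SD of the Rab genes in deficient animals was 0.05. That SD is taken over 2 arrays, so it cannot be set directly against those over 3.

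**Figure D3:**
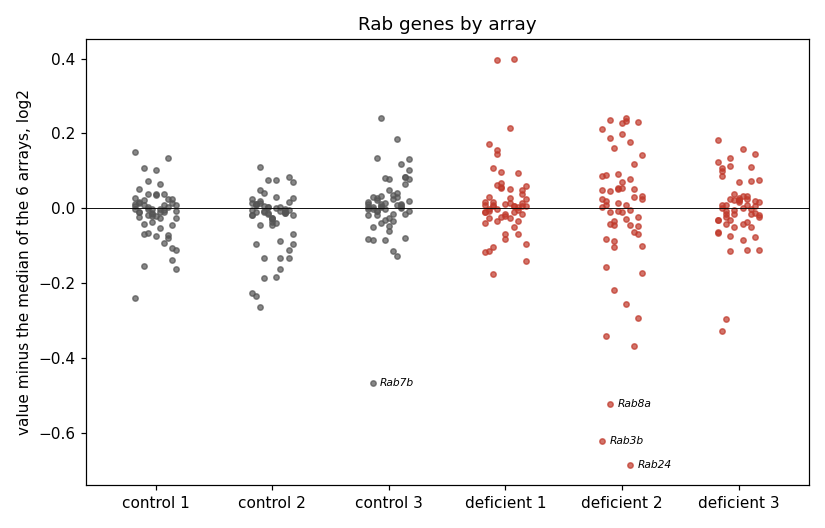
Value of each of the 59 Rab genes on each array minus its median over the 6 arrays, on the log2 scale. Each point is a gene, and genes beyond 0.40 are named. Rab24, Rab3b and Rab8a lie lowest on deficient array 2, and Rab7b on control array 3.

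Without deficient array 2, 35 Rab genes were higher and 24 lower, beside 48% of all genes higher. The Rab differences ran from -0.11 to 0.22 with a median of 0.01, beside -0.004 over all genes. The sign turned for 17 Rab genes, or 28.8%, beside 21.7% of all genes. Both remaining deficient arrays were above each control for 5 Rab genes, Rab5c, Rab18, Rab25, Rab39 and Rab42, beside 9.38% of all genes. They were below each control for 4, Rab7, Rab9b, Rab15 and Rab40c, beside 10.4%. In this fit 1 Rab gene, Rab42, was higher at an unadjusted p under 0.05, beside 2.68% of all genes, and 0 passed after adjustment (limma).

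The 59 genes had 132 probe sets, and 38 genes had more than 1. In 13 of those 38 all probe sets had the same sign, and in 25 they did not. With each of the 34945 singly annotated probe sets tested on its own, 0 Rab probe sets passed after adjustment (limma, Benjamini-Hochberg). At an unadjusted p under 0.05 there was 1 lower, the second probe set of Rab17, at 4.24, 4.17 and 4.42 against 3.80, 4.12 and 4.09, beside 1.34% of all probe sets. There were 0 higher, beside 2.48%. Rab27a was higher in all 4 of its probe sets and Rab3d lower in all 4 of its own, by at most 0.18 and 0.13.

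The widest disagreements lay between probe sets of 1 gene on deficient array 2. For Rab28, linked to photoreceptor cilia, the dimmer of 2 probe sets was at 8.52, 8.28 and 8.69 in controls and at 8.64, 6.28 and 8.53 in deficient animals. The brighter Rab28 probe set was at 11.41 on that same array, between 11.36 and 11.45 on the others. For Rab18, of the endoplasmic reticulum and lipid droplets, the dimmer probe set was at 5.92 on deficient array 2 and at 7.21 to 7.98 elsewhere. The brighter one was at 11.03 there and at 11.06 to 11.14 elsewhere. The dimmer Rab3a probe set was at 11.51 there, beside 12.14 to 12.32 on the 5 others, while the brighter one was at 13.17, its highest value. In all, 23 of the 132 Rab probe sets were over 0.20 below the 5 other arrays on deficient array 2. That is 17.4%, beside 7.43% of all probe sets with 1 symbol. Of the 73 Rab probe sets that were not the brightest of their gene, 18 were low in this way, or 24.7%, beside 9.89% of all such probe sets. No other array was low in this way for more than 2. The 3′ excess of the control probe sets on that array was given above, and its part in these values was not tested. Without that array the differences of those Rab28, Rab18 and Rab3a probe sets were 0.09, 0.04 and -0.04.

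**Figure D4:**
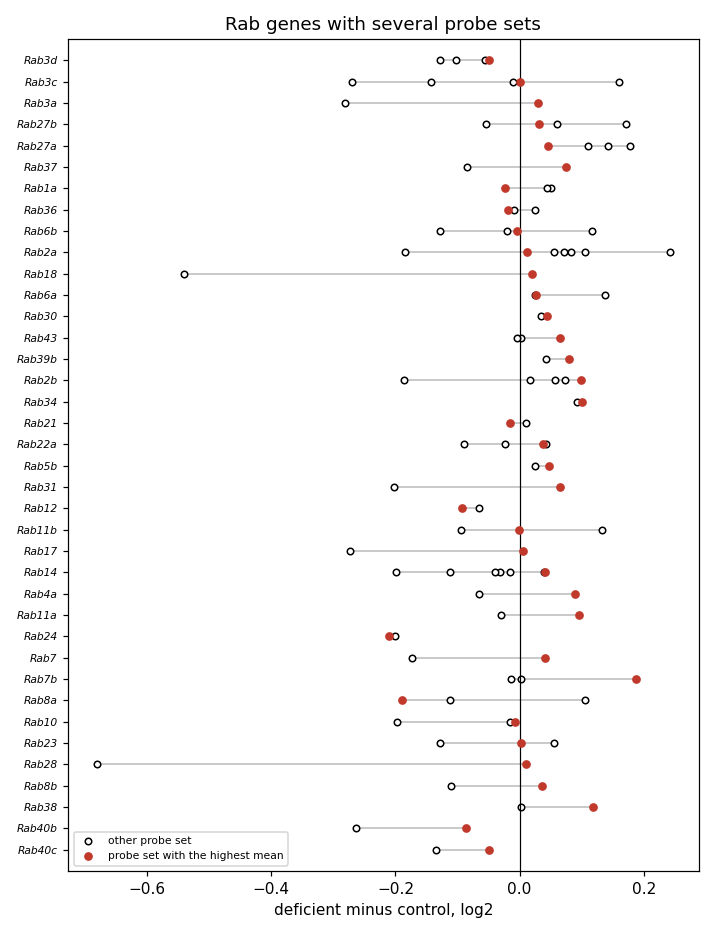
Difference between deficient and control means (log2, horizontal axis) for each probe set of the 38 Rab genes with more than 1. Filled points are the probe sets with the highest mean and open points the others. The open points of Rab28 and Rab18 at -0.68 and -0.54 are the farthest from 0.

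**Figure D5:**
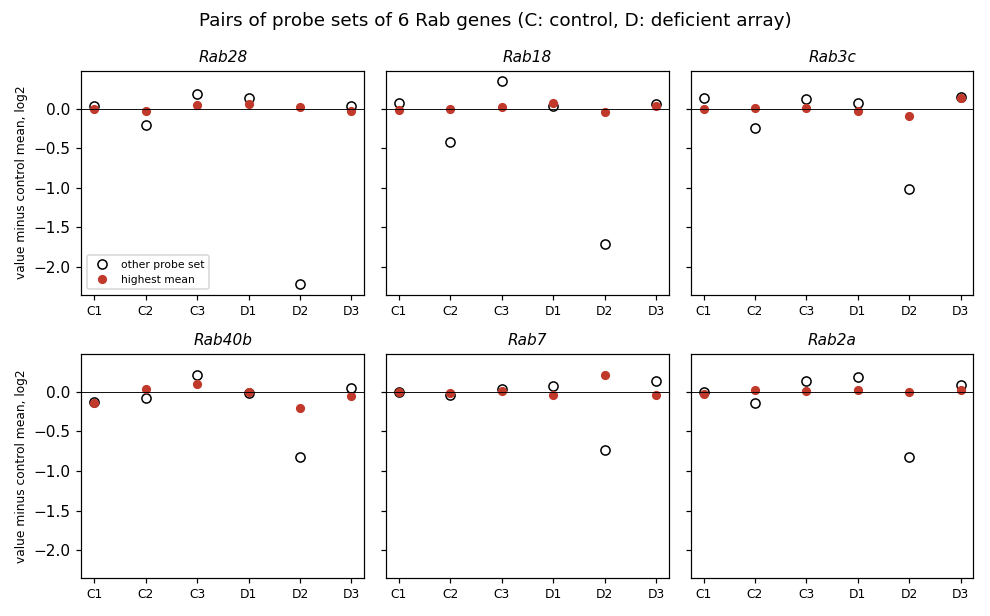
Value minus the control mean (log2, vertical axis) on each of the 6 arrays for the brightest probe set (filled) and a second probe set (open) of 6 Rab genes, those whose second probe set lay farthest below the 5 other arrays on deficient array 2. The open points drop on that array, and the filled points move far less.

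The machinery that loads, switches and reads Rab proteins was level too. Of 133 listed genes, 125 were measured, 63 higher and 62 lower, with a median difference of 0.000 (0.006 over all genes). None passed after adjustment (limma), and 0 had an unadjusted p under 0.05, beside the 3.33% higher and 1.39% lower of all genes. With single arrays left out, 0 to 6 machinery genes had such a p, the 6 (4.8%, beside 7.02% of all genes) without deficient array 3. Over the 12 other alternatives there were 0 to 5, the 5 (4%, beside 4.17% of all genes) without moderation of the variance. The choroid plexus covariate gave 4 (3.2%, beside 1.98%) and the replicate block 3 (2.4%, beside 5.82%). Of 7 chaperones and prenylation genes, 4 were higher. Rabggtb, a subunit of the enzyme that adds the lipid tails, was at 9.97, 9.91 and 10.04 against 9.93, 9.15 and 9.93, low on deficient array 2 alone. Its difference was -0.30 ± 0.19, and -0.04 without that array. Chml and Chm, the escort proteins for that step, differed by 0.23 ± 0.13 and 0.09 ± 0.07. Of 33 exchange factors, 15 were higher and 18 lower. Rab3il1, an exchange factor for Rab8 proteins that binds Rab3a, was at 6.81, 6.97 and 6.99 against 7.04, 7.17 and 7.06, with separated groups. The difference was 0.17 ± 0.08. Rin2, a Rab5 exchange factor, differed by -0.29 ± 0.13, or -0.15 without deficient array 2, and Rgp1, a subunit of a Rab6 exchange factor, by 0.11 ± 0.08.

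Of 36 GTPase-activating proteins, 15 were higher and 21 lower. Rab3gap1, the catalytic subunit of the complex that acts on Rab3 proteins, was at 10.01, 9.95 and 10.12 against 9.91, 9.76 and 9.95. The groups did not overlap, with deficient array 3 at 9.950 and control array 2 at 9.952. The difference was -0.15 ± 0.08, or -0.10 without deficient array 2. Tbc1d9 differed by 0.12 ± 0.06 and Tbc1d16 by -0.10 ± 0.06. Of 50 effectors, 30 were higher and 20 lower. Ankfy1, a Rab5 effector on early endosomes, was at 8.78, 8.80 and 8.87 against 8.90, 8.95 and 8.97, again with no overlap. Unc13d, a Rab27 effector in granule release, differed by 0.16 ± 0.08 and Rabep2, a Rab5 effector, by 0.13 ± 0.06. Groups did not overlap for 7 machinery genes in the higher and 4 in the lower direction, or 5.6% and 3.2%, near the 5.94% and 3.82% of all genes.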

How the data were processed

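The deposited table held log2 values made by the authors with RMA, per the submitters' processing notes, for 45101 probe sets on 6 arrays. RMA corrects background, quantile-normalizes and summarizes probes, so a shift common to most genes would not show. Its version and probe annotation were not named in these sources. Arrays carry no read depth, and their number limits the precision. By GEO's platform annotation 34945 probe sets had 1 symbol, 932 several and 9160 none (64 controls aside), and those with several were not named. The 59 Rab symbols matched RefSeq by Entrez identifier, with none altered. In R 4.3.3, limma 3.58.1 tested the differences by lmFit followed by eBayes (all 6 arrays, two-sided, with a term for genotype alone), with Benjamini-Hochberg adjustment over 18193 genes. Scripts were tested on simulated data. The genes named were those with an unadjusted p under 0.05, separated groups or the 2 smallest p of a route, examples of paralogs, and the 3 machinery genes per role with the smallest p, with per-array values for 1 per role. Other genes and probe sets given per array were chosen after their values were seen. Routes and lists came from general knowledge. Members and lists were chosen with earlier results of these data known. The labels call the arrays biological repeats. The series' design speaks of 3 pairs of littermates, but no label says that the repeat number marks a pair, so the block is an alternative. Alternatives left out 1 array at a time or used the repeat number as a block, other normalizations, probe set choices and variance models, a filter on dim genes and 2 tissue covariates. A planned comparison of Rab protein sequences was not run. Figures used matplotlib 3.10.9.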

Additional observations from a re-analysis of the deposited data

How the results depend on the processing

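No Rab or machinery gene passed the adjusted threshold under any of the 18 alternatives (limma). Over single arrays left out, genes called over the whole array numbered 0 to 5 higher and 0 to 1 lower. Rab genes higher at an unadjusted p under 0.05 numbered 0 to 1, and lower 0 to 0. Separated Rab genes numbered 3 to 9 higher, beside 9.38% to 14.4% of all genes, and 1 to 4 lower, beside 6.66% to 10.4%, since 2 arrays separate from 3 more often, and the median difference was 0.006 to 0.027. There was 1 gene called lower with dim genes left out, the mean of all probe sets, shared probe sets left out, the probe set of largest variance, a mean-variance trend, or array weights. Rab39 was the 1 higher Rab gene at an unadjusted p under 0.05. The count was 0 with quantile normalization again, dim genes left out (which removes Rab39), the probe set of largest variance, the trend, or no moderation, 2 with array weights (Rab39 and Rab42, beside 4% of all genes), and 3 with the meninges covariate (Rab38, Rab39 and Rab42, beside 2.94%). With the probe set of largest variance 1, Rab17, was lower at that p, beside 1.12%. Separated Rab genes on the lower side were 1 with the mean of all probe sets, 2 without shared probe sets and 2 with the largest variance, and on the higher side 0 with dim genes left out. The median difference was -0.008 with the mean of all probe sets and -0.024 with the largest variance. The cause was not tested.

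Signs turned in 16 of 283 values of the 16 genes followed, in 8 genes. With single arrays left out, Rab24 ran from -0.336 to 0.020, Rab13 from -0.179 to 0.008 and Rab3b from -0.320 to 0.083, each turning without deficient array 2. Rab31 was at -0.068 with the mean of all probe sets and -0.202 with the largest variance, and Rab4a at -0.066 with the latter and at -0.066 without shared probe sets. Rab13 was at 0.005 with array weights. With the choroid plexus covariate Rab7b was at -0.019 and Rab40b at 0.044. With the meninges covariate Rab24 was at 0.079, Rab40b at 0.006, Rab8a at 0.010, Rab13 at 0.001, Rab4a at -0.007 and Rab3b at 0.094. Same-numbered arrays of the 2 groups had correlations of deviations of 0.061, 0.238 and 0.195 across genes, so not all were over 0.1. The animals came as littermate pairs, and whether the numbers follow those pairs is not settled by the labels or by these values. Control array 3, not 1, correlated best with deficient array 1. With the replicate block, Rab39 differed by 0.20 (adjusted p = 0.766, limma) and 0 Rab genes passed.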
